A study of Rattus norvegicus with 14 samples.

Results

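The genes described here drive or mark cell division: 45 genes fixed by name, of which 15 control the passage from G1 into S phase, 13 copy DNA or supply its building blocks, and 17 act in mitosis. Members were the non-control probes whose gene name on the array equalled one of these names, and each gene was summarised by its brightest probe, the one with the highest mean level over the 14 arrays. By that rule 43 of the 45 genes were measured, among 26276 gene names on the array. Mki67, which encodes the proliferation marker Ki67, and E2f2, an E2F family transcription factor, had no probe under that name and have no values here. The measured genes were 14 G1/S genes, 13 replication genes and 16 mitosis genes.

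Colonocytes, the epithelial cells lining the colon, were taken from male Wistar rats fed for 15 days with a normal-protein diet (NPD, 14% of energy as protein) or an isocaloric high-protein diet (HPD, 55%), whose protein in the study was whole milk protein. Cells were loosened with EDTA from the flushed colon, whose distal end the study kept for other assays. Each of the 7 NPD and 7 HPD rats gave 1 array. The study had left out 1 further array of each diet as an outlier in a principal component analysis. Levels below are log2 signals set relative to the median of all probes on the same array, which is 0, and a difference of 1 is a doubling. In such bulk samples, fewer dividing cells and less RNA per dividing cell cannot be told apart. The arrays lay on 2 slides, told apart by the barcode in the scanner output: 4 NPD and 3 HPD arrays on slide 1, and 3 NPD and 4 HPD arrays on slide 2. All members except Ccne2, 42 of the 43, were well above background on all 14 arrays, and no member was saturated on any.

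In the colon, division is confined to the lower crypt, where stem cells and their transit-amplifying progeny cycle before they move up and differentiate. D-type cyclins with CDK4 or CDK6, and then cyclin E with CDK2, phosphorylate the retinoblastoma protein, which releases E2F transcription factors onto the promoters of replication genes. The licensing factors Cdc6 and Cdt1 load the MCM helicase on replication origins, and later, in G2, a different set of promoters carrying a CHR element switches on the mitotic genes. p21 (Cdkn1a), p27 (Cdkn1b) and p18 (Cdkn2c) are inhibitors of the cyclin-dependent kinases.

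RefSeq promoters (GRCr8 assembly, 250 bases before to 50 after the annotated start) were found for 32 of the 45 genes, Mki67 included. They were searched on both strands for E2F-type letters, spelled TTTCCCGC, TTTCGCGC, TTTGCCGC or TTTGGCGC. The CHR-type letters searched were TTTGAA and a variant of it, the letters TTTAAA. The search also took in the CCAAT box and the E-box of the Myc family, which reads CACGTG. E2F-type letters stood in 7 of 10 replication promoters (70.0%), 2 of 9 G1/S promoters and 1 of 13 mitosis promoters, against 2.14% of all 33469 promoters. CHR-type letters stood in 12 of 13 mitosis promoters (92.31%) and in 1 of 10 replication promoters, against 28.25% of all. CCAAT stood in 9 of 13 mitosis, 6 of 10 replication and 4 of 9 G1/S promoters, against 37.49% of all. These are matches of letters and say nothing of binding in these cells. The first pair below are helicase subunits and the last pair act in mitosis, as examples of both promoter types, and Cdk4 is shown between them because its difference between the diets held within each slide. Capitals mark E2F-type letters in Mcm6 and Mcm5, where matches on the opposite strands overlap and print as 1 run, E-boxes in Cdk4, and CHR-type letters in Top2a and Ccnb2, and each sequence is written 5′ to 3′ on the strand of its gene.
Mcm6 (chr13:42404303-42404602, minus strand): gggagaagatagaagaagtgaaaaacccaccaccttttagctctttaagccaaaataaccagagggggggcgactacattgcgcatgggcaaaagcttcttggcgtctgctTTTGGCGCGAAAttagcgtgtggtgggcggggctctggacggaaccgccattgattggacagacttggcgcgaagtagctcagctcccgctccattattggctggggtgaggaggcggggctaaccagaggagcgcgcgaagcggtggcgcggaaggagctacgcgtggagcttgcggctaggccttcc
Mcm5 (chr19:13488563-13488862, plus strand): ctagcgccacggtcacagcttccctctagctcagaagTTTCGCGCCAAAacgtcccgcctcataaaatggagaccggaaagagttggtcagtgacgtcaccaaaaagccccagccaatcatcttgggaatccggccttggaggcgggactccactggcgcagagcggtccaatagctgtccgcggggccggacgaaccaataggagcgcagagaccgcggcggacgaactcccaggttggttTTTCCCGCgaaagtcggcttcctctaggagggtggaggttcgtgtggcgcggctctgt
Cdk4 (chr7:64771203-64771502, plus strand): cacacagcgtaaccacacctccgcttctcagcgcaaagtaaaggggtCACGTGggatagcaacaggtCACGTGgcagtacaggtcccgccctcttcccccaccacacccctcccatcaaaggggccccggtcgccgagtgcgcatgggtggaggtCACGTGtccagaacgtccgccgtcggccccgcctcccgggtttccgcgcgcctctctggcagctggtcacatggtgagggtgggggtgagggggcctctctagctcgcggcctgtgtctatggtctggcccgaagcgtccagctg
Top2a (chr10:84473044-84473343, minus strand): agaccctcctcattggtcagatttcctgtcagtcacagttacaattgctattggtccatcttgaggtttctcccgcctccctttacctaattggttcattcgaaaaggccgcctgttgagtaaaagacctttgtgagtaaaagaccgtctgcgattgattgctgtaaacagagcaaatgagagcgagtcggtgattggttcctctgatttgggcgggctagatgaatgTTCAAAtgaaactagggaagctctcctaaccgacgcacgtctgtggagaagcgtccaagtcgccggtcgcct
Ccnb2 (chr8:79981609-79981908, minus strand): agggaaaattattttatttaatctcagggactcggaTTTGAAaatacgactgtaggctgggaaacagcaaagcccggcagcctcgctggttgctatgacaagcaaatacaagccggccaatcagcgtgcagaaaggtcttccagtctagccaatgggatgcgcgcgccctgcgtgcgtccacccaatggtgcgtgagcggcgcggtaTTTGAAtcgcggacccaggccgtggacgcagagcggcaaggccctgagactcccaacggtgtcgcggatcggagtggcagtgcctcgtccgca
Cdk4 had no match of the E2F or CHR type but 3 E-boxes, a motif found in 6.42% of all promoters and, among the members, also in Mcm2. The promoters of Cdc6 and Aurkb are not shown here.

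On rn4, the build of the array's annotation, the brightest probe of Cdk4 lies at chr7:67017293-67017352, that of Mcm6 at chr13:41052148-41052207 and that of Cdc6 at chr10:87696993-87697052. The Top2a probes lie at chr10:87771459-87771518 (the brighter) and chr10:87774762-87774821. Exon positions on that build were not used here.

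The first comparison asked whether cell cycle genes differed between the diets. No member passed a q-value of 0.1 in limma (0 of 43, where 17 of 30367 probes, 0.0560%, passed). An unadjusted limma p under 0.05 was found for 5 members, all with lower means in HPD rats: Cdk4, Cdc6, Mcm6, Top2a and Aurkb. Across all probes, 11.4% had such a p, 5.55% lower and 5.86% higher in HPD rats. The members' share of 11.6% lay near that of all probes in both directions together, and above the 5.55% of probes that were lower. No test of the list was run. In no member did all HPD rats lie on 1 side of all NPD rats, which 0.273% of all probes showed. The other members split between both directions, and in all 22 members had a higher and 21 a lower mean in HPD rats. Higher means were thus found for 51.2% of members and 64.2% of all probes. With cyclic loess these shares were 46.5% and 50.1%. The median log2 fold change of all probes was 0.105, and 12 of the 43 members lay above it. That median varied with the probes and the normalization, being 0.0478 over probes well above background only and 0.000668 with cyclic loess. The median of the members was 0.0117 here, -0.000143 among those well above background and -0.0274 with cyclic loess.

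**Figure D1:**
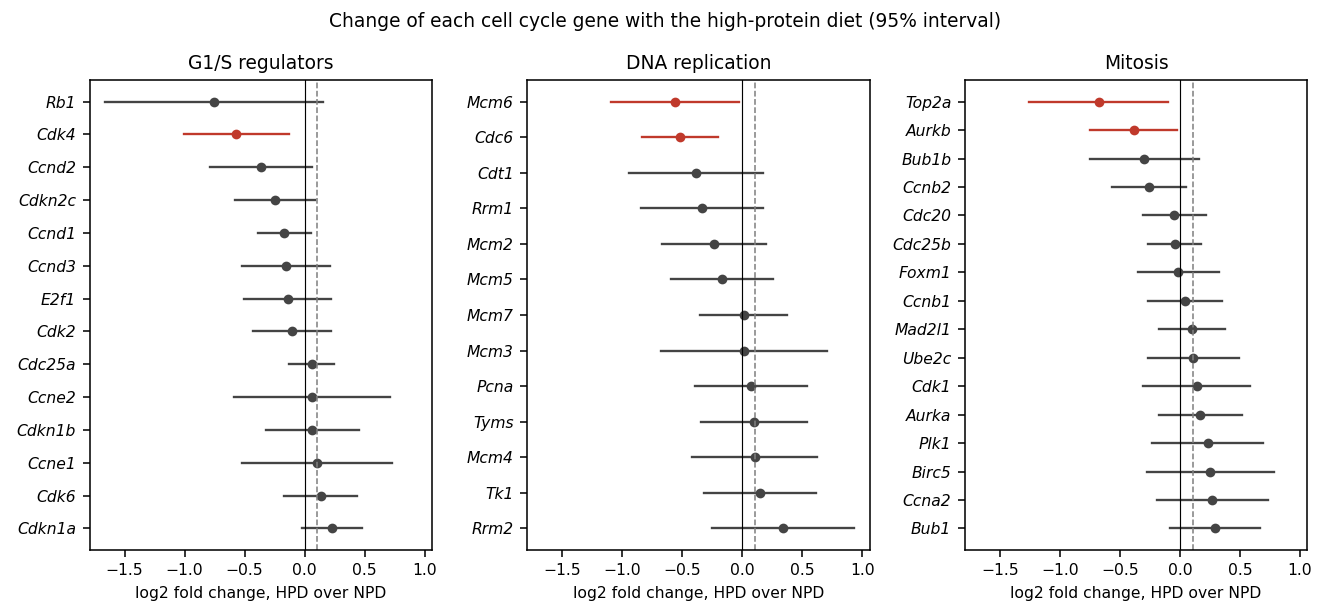
Log2 fold change of each of the 43 genes, HPD over NPD, with its 95% interval from limma; the dashed line is the median of all probes, 0.105, and red marks an unadjusted p under 0.05. The 5 red genes are all lower in HPD rats, and the other intervals include 0.

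For 39 of the 43 genes the 95% interval of the difference lay between -1 and 1, that is within a doubling either way, and for all 43 its upper end was below 1. The half-width of the interval had a median of 0.421. A rise to double the NPD level was thus outside the interval of every measured member, although for Ccne2 the signals compared were near background, while smaller differences were not resolved for most.

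Among the G1/S genes the D-type cyclins and Cdk4 had lower means in HPD rats, and the kinase inhibitor Cdkn1a a higher one. The median log2 fold change of the 14 genes was -0.12, and 6 had a higher and 8 a lower mean. None passed the threshold (0 of 14).

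Cdk4, the kinase partner of the D-type cyclins, had levels from 3.57 to 4.59 in NPD rats, with a median of 4.32. In HPD rats they ran from 3.01 to 3.55 to 4.15 (lowest, median, highest). The diets overlapped, and the NPD mean was above the levels of 6 of 7 HPD rats. The log2 fold change was -0.57 (SE 0.20, 95% interval -1.01 to -0.13), which is 0.674 of the NPD level. limma gave p = 0.0140 and q = 0.417, and the exact permutation test over rats gave p = 0.0221.

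Cdk4 also differed between the slides, being lower on slide 2 by a log2 value of -0.67 (q = 0.00101 for the slide in limma). Within each slide the diets did not overlap. On slide 1 the NPD rats ran from 4.32 to 4.59 and the HPD rats from 3.77 to 4.15, and on slide 2 the NPD rats ran from 3.57 to 3.96 and the HPD rats from 3.01 to 3.55. Such a separation within both slides, in the same direction, was found for no other member and for 1.11% of all probes. The differences were -0.48 on slide 1 and -0.47 on slide 2. A permutation that kept the diets' numbers on each slide gave p = 0.000816, the smallest that its 1225 regroupings can give, and limma with a slide term gave -0.47 (SE 0.11) with q = 0.204.

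The cyclin D genes, whose products activate CDK4 and CDK6, all had lower means in HPD rats. Ccnd1 ran from 5.91 to 6.09 to 6.32 (lowest, median, highest) in NPD rats and from 5.81 to 5.89 to 6.17 in HPD rats. The ranges overlapped over most of their length, although 6 of 7 HPD rats lay below the NPD mean. Its log2 fold change was -0.17 (SE 0.10), with p = 0.123 in limma and p = 0.0472 in the exact permutation test. Ccnd2 gave -0.36 (SE 0.20) and Ccnd3 -0.15 (SE 0.17), and both were below 0 within each slide. Cdk6, the other D-cyclin partner, gave 0.14 (SE 0.14).

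Cdkn1a, which encodes p21, a brake on the cyclin-dependent kinases, ran from 8.45 to 8.73 to 8.95 in NPD rats. In HPD rats it ran from 8.67 to 8.89 to 9.13, and the ranges overlapped. The log2 fold change was 0.22 (SE 0.12), with p = 0.0746 in limma and p = 0.0443 in the exact permutation test. All 7 HPD rats lay above the NPD mean of their own slide, and the permutation within slides gave p = 0.0245. Its dimmer probe gave 0.16 (SE 0.16). The other inhibitors pointed in different directions, Cdkn1b at 0.06 (SE 0.18) and Cdkn2c at -0.25 (SE 0.16), and neither had a p under 0.05.

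Cdkn1b, which encodes p27, ran from 3.74 to 4.38 to 4.70 in NPD rats and from 3.79 to 4.55 to 4.83 in HPD rats. Cdc25a, the phosphatase that activates CDK2, ran from 4.69 to 4.79 to 4.87 and from 4.62 to 4.88 to 4.92. Of the G1/S genes well above background on all 14 arrays these had the smallest differences. The diets overlapped almost completely for Cdkn1b. For Cdc25a the ranges overlapped too, but the HPD median of 4.88 lay above the highest NPD level of 4.87. Cdc25a had a log2 fold change of 0.06 with a 95% interval from -0.13 to 0.25.

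Rb1, which encodes the retinoblastoma protein, had the lowest estimate of all members at -0.75, but also the widest error (SE 0.43, 95% interval -1.66 to 0.15). Its levels spread from 0.44 to 2.84 in NPD rats and from 0.44 to 2.93 in HPD rats, with a slide difference of -1.28 (q = 0.00470). HPD replicate 1, at 2.93, stood far above the next HPD rat at 1.09. The remaining G1/S genes were E2f1 at -0.14, Cdk2 at -0.10, Ccne1 at 0.11 and Ccne2 at 0.06. Ccne2, a cyclin E gene, was well above background in no NPD rat and in 1 HPD rat, so that value compares signals near background.

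The replication genes had 2 members with a p under 0.05, Cdc6 and Mcm6 (15.4%, where 11.4% of all probes had such a p). Their median log2 fold change was 0.01, with 7 of 13 means higher and 6 lower, and none passed the threshold (0 of 13). The subunits of the MCM helicase did not share a direction.

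Cdc6, the licensing factor that recruits the helicase to origins, ran from 0.47 to 1.14 to 1.37 in NPD rats and from 0.10 to 0.56 to 0.81 in HPD rats. Each HPD level was under the mean of the NPD rats, and the overlap came from NPD replicate 1 at 0.47. The log2 fold change was -0.52 (SE 0.15, 95% interval -0.84 to -0.20), or 0.699 of the NPD level. It had the smallest p of any member, p = 0.00352 in limma with q = 0.417, and p = 0.00524 in the exact permutation test. The difference was -0.27 on slide 1 and -0.78 on slide 2. Cdt1, the other licensing factor, gave -0.38 (SE 0.26).

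Mcm6, a helicase subunit, ran from 1.17 to 2.05 to 2.49 in NPD rats and from 0.72 to 1.34 to 2.08 in HPD rats. The diets overlapped, and 6 of 7 HPD levels fell under the mean of the NPD rats. Its log2 fold change was -0.56 (SE 0.25), with p = 0.0394 in limma and p = 0.0612 in the exact permutation test. The other subunits gave -0.23 for Mcm2, 0.02 for Mcm3, 0.10 for Mcm4, -0.17 for Mcm5 and 0.01 for Mcm7, each with an interval that includes 0.

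Mcm7 and Mcm3 had the smallest differences of the group. Mcm7 ran from 4.84 to 5.53 to 5.67 in NPD rats and from 4.96 to 5.34 to 5.81 in HPD rats. Mcm3 ran from 4.39 to 5.60 to 6.31 and from 4.46 to 5.63 to 6.18, a wide spread within each diet. For Mcm3 the dimmer probe disagreed, at -0.44 (SE 0.18, with p = 0.0256 and q = 0.417 in limma and p = 0.0268 in the exact permutation test), and was well above background on all 14 arrays. Both Mcm3 probes are assigned to the same transcript in the array's annotation.

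Pcna, the sliding clamp of the replicative polymerases and a common proliferation marker, ran from 5.20 to 5.82 to 6.34 in NPD rats. In HPD rats it ran from 5.22 to 5.77 to 6.37. The diets covered nearly the same range, with 4 of 7 HPD rats above the NPD mean. The log2 fold change was 0.07 (SE 0.22, 95% interval -0.39 to 0.54), p = 0.746 in limma and p = 0.755 in the exact permutation test. With a slide term it was -0.01 (SE 0.17).

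Of the genes that make nucleotides for DNA, the subunits of ribonucleotide reductase had opposite signs, Rrm1 at -0.34 (SE 0.24) and Rrm2 at 0.34 (SE 0.28). Thymidylate synthase (Tyms) gave 0.10 (SE 0.21) and thymidine kinase (Tk1) 0.15 (SE 0.22). None had a p under 0.05.

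The mitosis genes held the remaining members with a p under 0.05, Top2a and Aurkb. The median of the 16 genes was 0.07, with 9 means higher and 7 lower in HPD rats and none past the threshold (0 of 16).

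Top2a, the topoisomerase that untangles sister chromatids, ran from 2.99 to 3.83 to 4.19 in NPD rats and from 1.98 to 2.94 to 3.77 in HPD rats. The diets overlapped, and 6 of 7 HPD rats lay below the NPD mean. Its log2 fold change was -0.68 (SE 0.27, 95% interval -1.26 to -0.10), with p = 0.0248 and q = 0.417 in limma and p = 0.0390 in the exact permutation test. It was also lower on slide 2, by a log2 value of -0.74 (q = 0.0135 for the slide). Within slides the diet difference was -0.50 and -0.64. A dimmer probe, assigned to another transcript record of the gene, gave -0.03 (SE 0.14) while well above background on all 14 arrays, so the difference was seen by 1 of its 2 probes. The mean of both probes gave -0.35.

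Aurkb, the kinase of the chromosomal passenger complex, ran from 0.37 to 0.86 to 1.05 in NPD rats and from -0.12 to 0.42 to 0.88 in HPD rats. Here too 6 of 7 HPD levels were under the mean of the NPD rats, and the diets overlapped. The log2 fold change was -0.38 (SE 0.17), with p = 0.0395 in limma and p = 0.0454 in the exact permutation test. It was -0.31 on slide 1 and -0.33 on slide 2. Birc5, or survivin, another member of the same complex, gave 0.25 (SE 0.25).

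**Figure D2:**
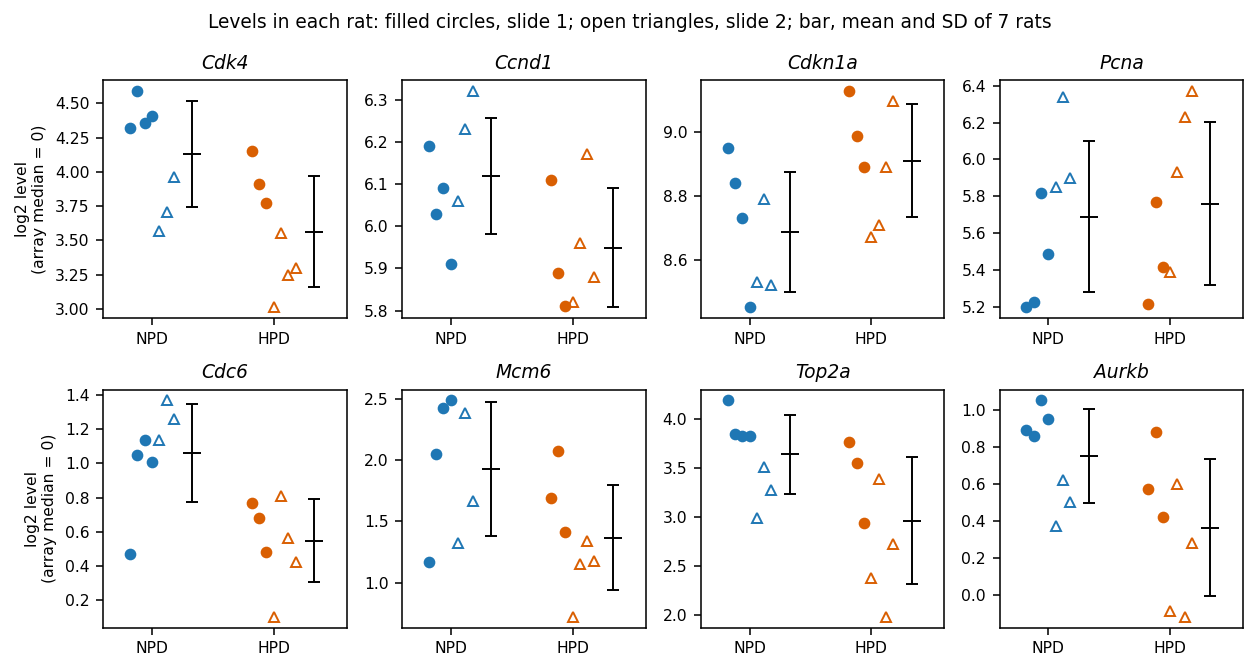
Log2 level in each rat (vertical axis, array median 0) for 8 genes by diet; filled circles are slide 1, open triangles slide 2, and bars give mean and SD of 7 rats. Cdk4 is separated by diet within each slide, and Pcna covers the same range in both diets.

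The cyclins of mitosis did not move together with diet. Ccna2 gave 0.27 (SE 0.22), with 0.28 from its other probe, Ccnb1 0.04 (SE 0.14) and Ccnb2 -0.26 (SE 0.14). Cdk1, their kinase, gave 0.14 (SE 0.21), and its activator Cdc25b -0.04 (SE 0.10).

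Cdc25b and Foxm1 had the smallest differences. Foxm1, a transcription factor of G2 and mitosis genes, ran from 2.35 to 2.71 to 3.07 in NPD rats and from 2.24 to 2.74 to 3.25 in HPD rats. Cdc25b ran from 2.71 to 3.01 to 3.18 and from 2.78 to 2.95 to 3.11. For both genes the ranges of the diets overlapped almost wholly. The intervals of the difference were -0.35 to 0.32 for Foxm1 and -0.26 to 0.18 for Cdc25b.

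The spindle checkpoint genes, which hold chromosome separation until all chromosomes are attached, were also divided. Bub1 gave 0.29 (SE 0.18), Mad2l1 0.10 (SE 0.13) and Bub1b -0.30 (SE 0.21). Cdc20 and Ube2c, which work with the anaphase-promoting complex to end mitosis, gave -0.05 (SE 0.12) and 0.11 (SE 0.18). The mitotic kinases Plk1 and Aurka gave 0.23 (SE 0.22) and 0.17 (SE 0.16).

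A second probe gave another reading for 11 of the 43 genes. In 9 of the 11 the dimmer probe had a lower log2 fold change than the brighter one, and in 2, Mcm3 and Mcm4, the sign differed. Of these dimmer probes 8 were well above background on all 14 arrays. That of Mcm4 was so in 5 NPD and 3 HPD rats, that of Foxm1 in 7 and 6, and that of Bub1 in 1 and 0. The dimmer probes gave -0.28 for E2f1, -0.42 for Mcm2, -0.38 for Mcm4, 0.01 for Rrm2, -0.10 for Cdc25b, 0.11 for Bub1 and -0.38 for Foxm1, and none of these had a p under 0.05.

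Many members varied together from rat to rat. The replication genes had a median pairwise Pearson correlation of 0.675 over the 14 arrays (78 pairs), and 0.708 after each slide's mean was removed. For the mitosis genes the values were 0.36 and 0.542 (120 pairs), and for the G1/S genes 0.148 and 0.262 (91 pairs). Between the members and all probes outside the gene lists the median was 0.0669, and 0.0524 within slides. These correlations are descriptions, over arrays that share slides and over bulk RNA samples whose mixture of cells may differ between rats. Differences between the diets were not removed, so they also enter the correlations. The closest pairs within slides were Mcm2 with Mcm5 (0.968), Plk1 with Aurka (0.961), Cdk1 with Birc5 (0.952) and Mcm4 with Pcna (0.952).

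Within slides Top2a correlated with Bub1b at 0.883, with Aurkb at 0.882 and with Ccnb2 at 0.748, but with Aurka at -0.191. Ccnb2 correlated with Bub1b at 0.809 and with Aurkb at 0.806. Cdk4 correlated with Top2a at 0.785. Top2a, Aurkb, Bub1b and Cdk4 were lower on slide 2, whereas Plk1, Birc5, Cdk1 and Ccna2 were higher there, by log2 values of 0.60, 0.72, 0.54 and 0.55. In all, 22 of the 43 members differed between the slides at a q-value of 0.1 in limma, where 12164 of all 30367 probes did. Of the 43 members 16 were higher on slide 2 among those that differed.

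**Figure D3:**
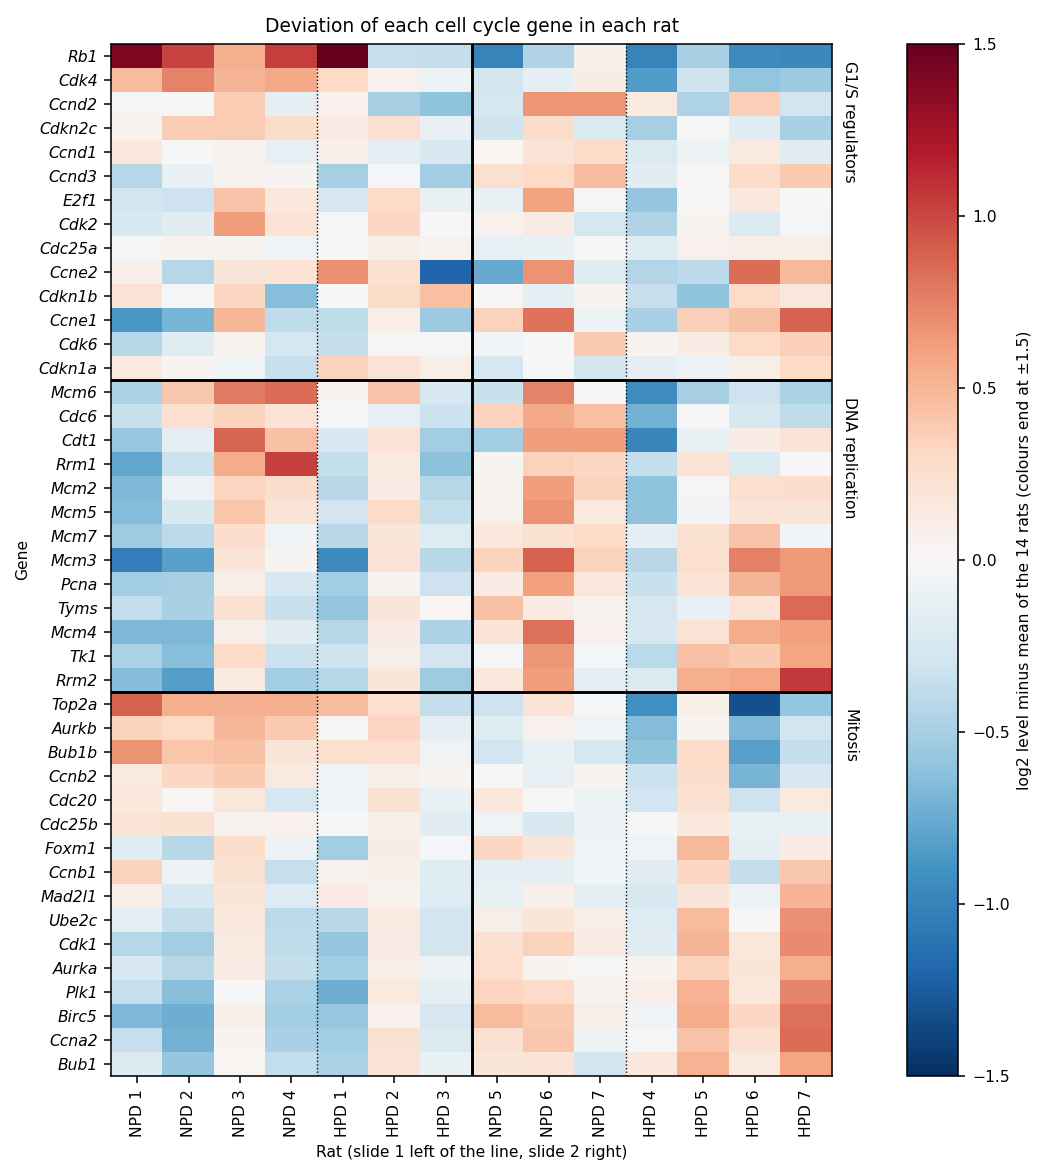
Deviation of each gene (rows, by group and by log2 fold change) from its mean over the 14 rats (columns), in log2 units, with slide 1 left of the solid line and dotted lines between the diets. Replication genes and most mitosis genes are low or high together in a rat, and Rb1, Cdk4, Top2a, Aurkb and Bub1b are higher on slide 1.

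As a mean over its 13 genes, the replication group ran from -0.59 in NPD replicate 1 to 0.58 in NPD replicate 6, in log2 units around each gene's mean over all rats. In HPD rats it ran from -0.48 in replicate 4 to 0.32 in replicate 7. The extremes on both sides were NPD rats, and the diet medians were 0.11 and 0.11. For the mitosis group the NPD rats ran from -0.18 to 0.21 and the HPD rats from -0.22 to 0.34. For the G1/S group they ran from -0.18 to 0.28 and from -0.37 to 0.11. The ranges of the diets overlapped in all 3 groups. HPD replicate 4 had the lowest level of 9 of the 43 members and NPD replicate 1 that of 8, while HPD replicate 7 had the highest level of 14.

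**Figure D4:**
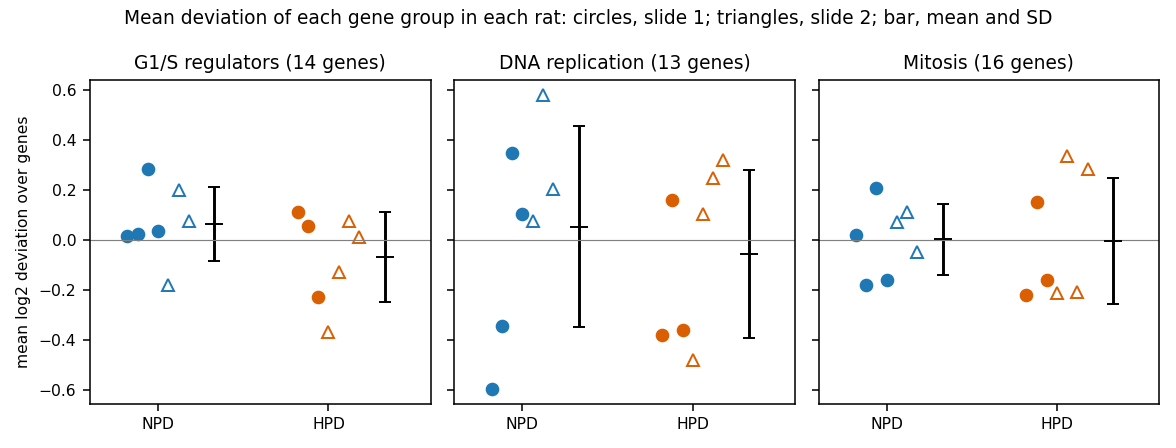
Mean log2 deviation over the genes of each group in each rat (vertical axis) by diet, with circles for slide 1, triangles for slide 2, and bars for mean and SD of 7 rats. The diets overlap in each group, and the replication group spreads widest, from -0.59 to 0.58.

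Further genes of the same pathways, on lists of non-members, were read beside them. Of all probes 64.2% had higher means in HPD rats. An unadjusted limma p under 0.05 was found for 11.4% of all probes, and for 5.55% with a lower mean. Of 23 other G1/S regulators 14 had higher means in HPD rats, none passed the threshold and 1 had a p under 0.05. It was Lin37, a subunit of the DREAM complex that represses cell cycle genes, at -0.47 (SE 0.18), followed by Mycn at -0.70 (SE 0.35) and Tfdp2 at -0.25 (SE 0.16).

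Of 39 other replication factors 19 had higher means and none passed the threshold. A p under 0.05 was found for 5 (12.8%, against 11.4% of all probes), all lower in HPD rats. The smallest p values were those of Rpa2, a subunit of the protein that coats single-stranded DNA, at -0.47 (SE 0.13), the clamp loader subunit Rfc5 at -0.73 (SE 0.24), and Gins2, of the helicase complex, at -0.55 (SE 0.20). Of 42 other mitotic factors 24 had higher means, none passed the threshold and 4 (9.52%) had a p under 0.05, again all lower. Kif23 and Prc1, which organise the central spindle, gave -0.56 (SE 0.15) and -0.50 (SE 0.20), and the phosphatase Cdc25c gave -0.40 (SE 0.16). The medians of these lists were 0.08, -0.03 and 0.04.

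Markers of the cell types in the preparation were read beside these values. Of the epithelial markers, 13 of 14 absorptive and 10 of 10 goblet cell genes were well above background on all 14 arrays. Stromal and muscle markers were so for 9 of 14, while the fibroblast genes Pdgfra, Dcn and Lum were above it on none. Immune markers were so for 11 of 19, and the pan-leukocyte gene Ptprc was above background on all 14 arrays.

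The 13 stem and crypt base markers, the compartment nearest to the dividing cells, had mean deviations from -0.29 to 0.27 in NPD rats and from -0.33 to 0.28 in HPD rats. Of these markers 7 had higher means in HPD rats, and 1, Cdca7, had a p under 0.05, at -0.53 (SE 0.20). Ascl2 and Lrig1 followed at -0.45 (SE 0.33) and -0.18 (SE 0.16). Lgr5, the stem cell receptor, was well above background in 3 NPD and 4 HPD rats. The 14 absorptive markers ran from -0.39 to 0.27 and from -0.21 to 0.37, with 11 means higher in HPD rats, of which Guca2a had a p under 0.05 at 0.31 (SE 0.14), ahead of Slc26a3 at 0.33 (SE 0.15) and Alpi at 0.17 (SE 0.12).

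Goblet markers ran from -0.26 to 0.26 in NPD rats and from -0.23 to 0.82 in HPD rats, and Spink4, Agr2 and Clca1 had a p under 0.05, at 1.82 (SE 0.42), -0.63 (SE 0.24) and -0.56 (SE 0.25). Immune markers ran from -0.53 to 1.34 and from -0.46 to 0.12, with NPD replicate 4 at 1.34, and Lyz2, Cd74 and Itgam gave -0.56, -0.62 and 0.34. Stromal and muscle markers ran from -0.22 to 0.17 and from -0.17 to 0.15, with Col3a1, Col1a1 and Myh11 at 0.61, 0.35 and -0.48. Red blood cell markers ran from -0.68 to 0.29 and from -1.41 to 1.55, with Slc4a1, Ahsp and Hbb-b1 at 0.40, 0.28 and 0.41. An unadjusted limma p under 0.05 was found for 3 of 10 goblet markers (30.0%), 3 of 19 immune markers (15.8%) and 3 of 14 stromal and muscle markers (21.4%). These are the genes named above for those lists. Such a p was found for 0 of 5 red blood cell markers and for 11.4% of all probes. Of the 19 immune markers 13 had lower means in HPD rats. No gene of these lists passed the threshold. The ranges of the diets overlapped in each list, and the part of cell composition in the members' values was not tested.

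The number of members called changed with normexp background correction, and with the slide term on the deposited values. It stayed 0 with the slide term on the processed signal and under 11 alternatives in all, the slide term included, besides leaving out single arrays. With normexp background correction of the raw signals, 4 members passed a q-value of 0.1, Ccnd1, Cdk4, Cdc6 and Top2a, all lower in HPD rats, while 16.9% of all probes passed (6.15% lower). With a slide term as well, 9 members passed, all lower, adding Aurkb, Ccnb2, Ccnd2, Ccnd3 and Mcm6, where 27.9% of all probes passed (10.6% lower). The authors' deposited values with a slide term gave 6 members, Aurkb, Ccnd1, Ccnd3, Cdc6, Cdk4 and Top2a, all lower, where 10.5% of all genes passed (6.50% lower). Without the slide term the deposited values gave 0 members, and 10 with an unadjusted p under 0.05, all lower. Of all genes 23.4% had such a p in either direction, and 2649 of 26414 had it with a lower mean in HPD rats. Each of these 9 genes had a lower mean in HPD rats under all settings run, Cdk4 between -0.68 and -0.47 and Cdc6 between -0.61 and -0.37. The share of members with higher means was 51.2% in the first analysis and 23.3% with normexp, while that of all probes was 64.2% and 62.7%. With cyclic loess these shares were 46.5% of members and 50.1% of all probes.

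**Figure D5:**
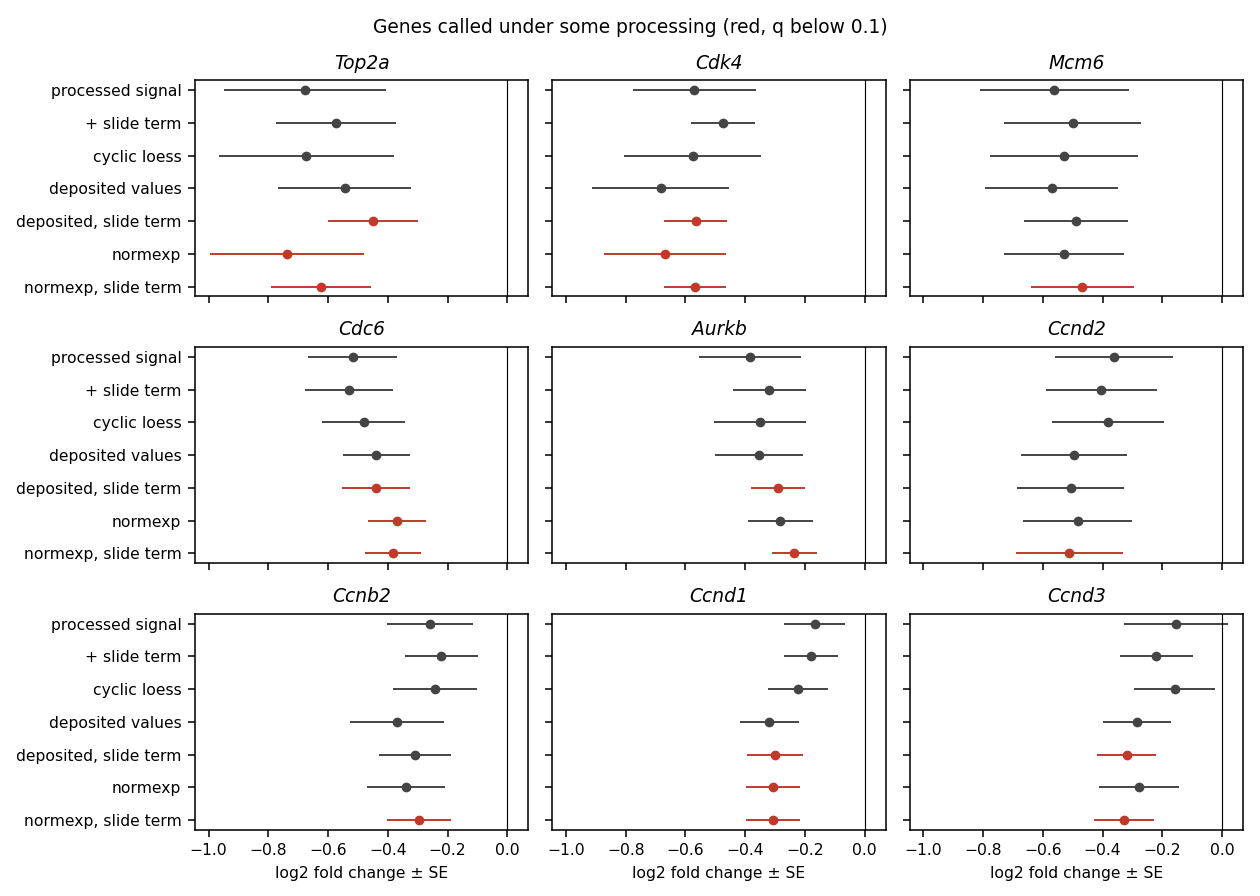
Log2 fold change, HPD over NPD, with SE (horizontal axis) for the 9 genes called under some processing, by processing (rows); red marks a q-value below 0.1. All 9 stay below 0 in each row, and the calls appear with normexp, or with the deposited values and the slide term.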

How the data were processed

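RNA of detached colonocytes from 7 NPD and 7 HPD rats was hybridised in 1 colour (Cy3) to Agilent arrays. The authors deposited scanner output of Agilent Feature Extraction 10.7.3.1 (per the labels), in which spot intensity is linear, raw and background-subtracted, and a normalized gene table on the log2 scale. Probe coordinates are printed as the files give them, on rn4. The number of columns of other samples was 0.

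Control spots and outlier spots were left out, the processed signal was log2-transformed, spots were averaged per probe and arrays centred on their median. limma 3.58.1 in R 4.3.3 compared the diets over 30367 probes (diet as the only term, Benjamini-Hochberg, q-value below 0.1). The fit was tried on simulated data in which probes varied independently and had no slide effect. That trial therefore does not cover slide differences or genes that vary together. Exact two-sided permutation tests of single genes ran over 1716 splits and, added after the data were seen, over 1225 regroupings within slides. Well above background means at least 50% of a probe's spots so marked. Rats are separate animals, and their number limits the precision.

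The members and lists were chosen with earlier results of these data known. All members are named with their change. Values by rat are given for members with a limma or permutation p under 0.05, Pcna, Ccnd1, Cdk4, Top2a and the 2 members of each group with the smallest change among those well above background on all 14 arrays. From other lists, called genes or else the 3 with the smallest p are named. Alternatives were the median and mean pixel signal, normexp (offset 50), centring on the 75th percentile, quantile and cyclic loess normalization, probes well above background only, slide and replicate terms, a trend in the variance, the deposited table, the mean of all probes of a gene and leaving out each array. Added after the data were seen were the slide term with normexp or with the deposited table, and centring over spots.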

Additional observations from a re-analysis of the deposited data

Results flagged for a closer look

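Within the 7 rats of a diet, 3 of 86 sets of values had an array standing apart by Dixon's test, and chance gives about 1 in 20. For Rb1, HPD replicate 1 was the highest at 2.93, its gap to the next rat (1.09) being 0.739 of the range, and without it the log2 fold change was -1.07. For Cdc6, NPD replicate 1 was the lowest at 0.471, with a gap of 0.6 of the range to the next at 1.01, and without it the log2 fold change was -0.61. For Cdc25a, HPD replicate 4 was the lowest at 4.62, with a gap of 0.691 of the range to the next at 4.83, and without it the log2 fold change was 0.10.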

How the results depend on the processing

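No member was called in the first analysis, with the q-value below 0.05, or without any 1 array (0 members in each of the 14 fits), and 16 to 23 members had higher means when 1 array was left out. The medians then ran from -0.16 to -0.05 (G1/S), -0.15 to 0.08 (replication) and -0.01 to 0.11 (mitosis). Members called numbered 4 with normexp, 6 with the deposited table and slide term and 9 with normexp and the slide term, and members with higher means numbered 10, 9 and 7 there and 11 with the deposited table alone. The cause was not tested. All probes called numbered 17 in the first analysis, 5142 with normexp, 2767 with the deposited table and slide term, and 8479 with normexp and the slide term.

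No source says that the replicate numbers pair the rats. Same-numbered rats correlated above 0 in their deviations in 6 of 7 pairs, from 0.143 to 0.386, and at -0.0899 in replicate 4, the pair that spans both slides, and 5 of 14 rats were closest to the rat of their own number. These correlations cannot decide whether the numbers pair the rats, because 6 of the 7 same-numbered pairs also share a slide. The numbers were not taken as pairs, since no source states a pairing. With the replicate block 0 members were called, 22 had higher means, and the medians were -0.12, 0.01 and 0.07. The all-probe count went from 17 to 8, while an unadjusted p under 0.05 was found for 7 members instead of 5 and for 21.2% of all probes instead of 11.4%.

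Of the 43 members 24 kept their direction under each setting run, and the others, none with a p under 0.05, changed sign in some. With the median pixel signal these were Cdc25a -0.046, Cdkn1b -0.0388, Pcna -0.0291, Mcm3 -0.0898, Mcm7 -0.10 and Ccnb1 -0.0204. With the mean pixel signal these were Cdc25a -0.0425, Cdkn1b -0.0388, Pcna -0.0277, Mcm3 -0.0882, Mcm7 -0.0991 and Ccnb1 -0.0314. With normexp these were Ccne1 -0.0237, Cdc25a -0.0825, Cdkn1b -0.0771, Pcna -0.0691, Mcm3 -0.13, Mcm4 -0.0338, Mcm7 -0.14, Tyms -0.0294, Ccnb1 -0.0632, Cdk1 -0.0105, Ube2c -0.0198 and Mad2l1 -0.0275. With quantile normalization these were Ccne2 -0.0472, Mcm3 -0.0422, Mcm7 -0.0439 and Foxm1 0.0216. With cyclic loess these were Ccne2 -0.0954, Mcm3 -0.0249, Mcm7 -0.0274 and Foxm1 0.00387. With the slide term these were Pcna -0.00713, Mcm3 -0.10 and Mcm7 -0.0359. With the deposited table these were Ccne1 -0.0304, Cdc25a -0.0874, Cdkn1b -0.0802, Pcna -0.0705, Mcm3 -0.33, Mcm7 -0.15, Tyms -0.04, Ccnb1 -0.0618, Cdk1 -0.0122, Ube2c -0.0271 and Mad2l1 -0.0332. With the deposited table and slide term these were Ccne1 -0.0915, Cdk6 -0.0055, Cdc25a -0.0467, Cdkn1b -0.0263, Pcna -0.12, Mcm3 -0.36, Mcm7 -0.16, Tyms -0.061, Tk1 -0.029, Ccnb1 -0.0441, Cdk1 -0.0557, Ube2c -0.0455 and Mad2l1 -0.00975. With normexp and the slide term these were Ccne1 -0.0968, Cdk6 -0.0105, Cdc25a -0.0617, Cdkn1b -0.0409, Pcna -0.14, Mcm3 -0.23, Mcm4 -0.12, Mcm7 -0.17, Tyms -0.0672, Tk1 -0.0443, Ccnb1 -0.0644, Cdk1 -0.0714, Aurka -0.0145, Ube2c -0.0532 and Mad2l1 -0.0205. With centring over spots these were Cdc20 0.0192, Cdc25b 0.023 and Foxm1 0.0534. With the mean of all probes these were Mcm3 -0.21 and Mcm4 -0.14. Without 1 array the ranges were -0.0315 to 0.25 for Ccne1, -0.0291 to 0.18 for Pcna, -0.15 to 0.18 for Mcm3, -0.00192 to 0.25 for Mcm4, -0.077 to 0.0824 for Mcm7, -0.0729 to 0.27 for Ccne2, -0.0944 to 0.0735 for Foxm1, -0.0382 to 0.17 for Cdkn1b, -0.0198 to 0.11 for Ccnb1, -0.0936 to 0.00271 for Cdc20 and -0.0352 to 0.20 for Tyms. Precision is limited by 7 rats a diet and by slides that hold unequal numbers of each diet. For Ccne2 and the dimmer probes of Mcm4 and Bub1 it is also limited by signal near background.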
